A study of Mus musculus with 9 samples.

Results

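The homeobox genes of the 4 mouse Hox clusters were followed in whole colon RNA, together with Evx1 and Evx2, the even-skipped homologues that lie beyond the posterior ends of the HoxA and HoxD clusters. The set held 40 of the 54491 rows of the deposited expression table, namely 38 Hox genes (10 of HoxA, 10 of HoxB, 9 of HoxC and 9 of HoxD) and the 2 Evx genes, each matched by symbol. The genes were chosen by symbol, but as a group they were selected on earlier results from these libraries, in which the HFD colon differed from the other groups. Their levels, differences and calls that involve the HFD group are therefore a description. Their tests are read only for HFD with the bacterium against control. Other genes named below come from lists made with the same earlier results known, and were tested in every comparison. Of the 40 genes, 28 reached 0.5 FPKM (fragments scaled to transcript length and to library size) in at least 3 of 9 libraries and entered the model. Hoxd12, Hoxd13 and Evx2 passed only through the HFD libraries, so they had to differ there.

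The colon came from C57BL/6 mice at postnatal day 98. The 3 groups were control, high-fat diet (HFD), and HFD with gavage of Papillibacter cinnamivorans, an anaerobic bacterium (called HFD with the bacterium here). The study kept 15 mice per group, 45 in all, from 6 weeks of age, and 3 libraries per group were deposited, so most mice have no library. The libraries are numbered 1, 2 and 3 for control, 1, 2 and 4 for HFD, and 1, 3 and 4 for HFD with the bacterium, and values below are always given in that order. Neither the part of the colon sampled nor whether each library is 1 mouse is stated, so spreads and p-values describe differences between these libraries, which may be technical. Gavage is named for the bacterium group alone, so the bacterium and the gavage cannot be told apart.

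Hox genes encode homeodomain transcription factors that give cells their position along the body axis, and adult gut keeps part of that regional code in both epithelium and mesenchyme. Within a cluster the genes lie in the order in which they are used from front to back, with low paralogue numbers anterior and high ones posterior, a property called collinearity. Polycomb complexes keep the unused part of a cluster silent, and Cdx factors, retinoic acid and TALE homeodomain cofactors such as Meis proteins act with or on the clusters. In mouse gut the posterior genes, group 13 above all, mark the hindgut end.

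The HFD colon carried a posterior Hox pattern in HoxB and HoxD: Hoxb13, Hoxd13, Hoxd12, Hoxd11, Hoxd10 and Evx2 were high, and Hoxb3 to Hoxb8, Hoxd4 and Hoxd8 were low. HoxA and HoxC were not uniform in this. Posterior Hoxa13 but also central Hoxa6 were highest in HFD, posterior Hoxa11 was lowest there, and posterior Hoxc10 and Hoxc11 were at 0 in HFD. With the bacterium, Hoxb3 to Hoxb8 overlapped the control levels. Mean Hoxd10, Hoxd11 and Hoxd4 were 2.35, 2.54 and 2.32 times the control means, or 1.585, 1.694 and 1.811 times without control replicate 1. Hoxd10 also overlapped the control levels, and none of these differences from control had an adjusted p below 0.05 in limma. In bulk tissue a change in RNA per cell and a change in the number of cells of a type cannot be told apart, for these genes or any below. The stretch of colon sampled is not stated, so a difference in that stretch cannot be told apart from the diet or the bacterium either. Control replicate 1 stood apart from control replicates 2 and 3. Among the Hox genes that reached 1 FPKM in any library, it was above both other controls for 9 of 10 HoxA genes, and below both for 7 of 8 HoxB and 5 of 7 HoxD genes. Its summed level of 10 smooth muscle genes was 6956 FPKM against 1321 to 3220 in the other 8 libraries, and the part of this in its Hox levels was not tested. Counts of genes called in HFD against control, meaning at an adjusted p below 0.05 in limma, are given both ways where they change without it. The share of all genes called without it is not given beside them, so nothing is read from such changes.

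The promoters of Hoxd13 and Hoxd12, the posterior end of HoxD that was high in HFD, are shown with that of Hoxb8, a central gene that was low there and was picked for contrast after its values were seen. Hoxa13 and Hoxb13 were also highest in HFD, but the Hoxa13 window is not printed and Hoxb13 had no entry. Each run covers 250 bases before to 50 bases after the transcript start, from RefSeq on GRCm38.p6 and not the GRCm39 build of the expression files, and CG dinucleotides are in capitals.
Hoxd13, chr2:74667975-74668274, plus strand: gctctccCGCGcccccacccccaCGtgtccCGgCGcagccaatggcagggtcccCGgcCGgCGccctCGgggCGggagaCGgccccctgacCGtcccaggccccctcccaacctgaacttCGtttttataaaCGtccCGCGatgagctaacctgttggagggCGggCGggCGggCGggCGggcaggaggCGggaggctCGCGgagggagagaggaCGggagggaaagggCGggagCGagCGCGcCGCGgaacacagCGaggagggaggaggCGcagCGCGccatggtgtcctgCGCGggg
Hoxd12, chr2:74674763-74675062, plus strand: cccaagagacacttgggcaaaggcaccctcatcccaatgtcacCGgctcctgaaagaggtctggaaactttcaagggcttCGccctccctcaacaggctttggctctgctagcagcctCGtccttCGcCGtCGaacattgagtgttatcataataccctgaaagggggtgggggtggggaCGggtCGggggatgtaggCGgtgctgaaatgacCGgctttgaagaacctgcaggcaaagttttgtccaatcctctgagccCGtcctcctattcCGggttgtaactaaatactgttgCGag
Hoxb8, chr11:96281655-96281954, plus strand: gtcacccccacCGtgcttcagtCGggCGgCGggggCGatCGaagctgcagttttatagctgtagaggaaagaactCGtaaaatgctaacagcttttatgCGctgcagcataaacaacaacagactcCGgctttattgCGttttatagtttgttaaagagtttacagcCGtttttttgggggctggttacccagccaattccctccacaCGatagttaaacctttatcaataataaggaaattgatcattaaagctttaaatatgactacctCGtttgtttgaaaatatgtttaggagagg

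The Hoxd13 window held 37 CG dinucleotides, and the Hoxd12 and Hoxb8 windows 13 each. Among the members the highest number was 45, in the Hoxa13 window. Across the 26 windows of the 24 members with an entry, the median was 14.5, against 7 over all 32851 promoters of the same length, and the median GC content was 56.5% against 52.67%. The sequence TTTATG, the core of a Cdx binding motif, was searched on both strands. It occurred in the windows of 5 members, Hoxa7, Hoxb8, Hoxd3, Hoxd4 and Hoxd11, and in 11.9% of all promoters, and a match describes letters only.

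Group 13 genes, the most posterior of each cluster, were the most abundant Hox transcripts of the HFD colon. Hoxd13 was at 0.4500, 0 and 0.0266 FPKM in control, 85.96, 94.3 and 72.6 in HFD and 0, 0.0483 and 0.138 in HFD with the bacterium. Hoxd13 patterns the digits and the hindgut and anal sphincter, and its mutation gives limb malformations. All 3 HFD libraries were far above the other 6, with 4003, 4202 and 3158 fragments recovered from the FPKM, whereas control replicate 1, with 19, had the most of any other library. For Hoxb13 the values were 7.73, 0.0598 and 0.0898 FPKM in control, 118, 128 and 134 in HFD and 0.227, 2.15 and 0.0516 in HFD with the bacterium. Hoxb13 is a marker of distal colon and prostate epithelium, and HFD replicates did not overlap the others. Its 290 fragments in control replicate 1 and 79 in replicate 3 of HFD with the bacterium contrasted with 2 to 7 in the remaining 4 libraries outside HFD. Hoxa13 was at 26.00, 2.06 and 0.385 FPKM in control, 31.3, 34.1 and 35.96 in HFD and 6.201, 10.1 and 2.28 in HFD with the bacterium. Hoxa13 is required for hindgut, genital and limb development. Here control replicate 1 came close to the HFD libraries, which were still the highest 3, while control replicates 2 and 3 lay below every library with the bacterium. Hoxc13, the group 13 gene best known from hair and nail, was at 0 in all 9 libraries.

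The ratio of group means gives the size of these gaps. Mean Hoxd13 in HFD was 530.6 times the control mean and 1361 times the mean with the bacterium. For Hoxb13 the ratios were 48.3 and 157, and for Hoxa13 3.57 and 5.45. The ratios to control rested on control replicate 1, without which they were 6340 for Hoxd13, 1697 for Hoxb13 and 27.6 for Hoxa13. Hoxd13 had 0 and 1 fragments in control replicates 2 and 3, and 0, 2 and 6 with the bacterium. Hoxb13 had 2 and 3 in control replicates 2 and 3. The size of ratios that rest on so few fragments is uncertain. On the log2(FPKM + 1) scale used for the model, which understates changes of low genes, Hoxd13 differed by 6.21 (SE 0.17) between HFD and control. The corresponding difference for Hoxb13 was 5.89 (SE 0.76), and for Hoxa13 2.84 (SE 0.94).

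**Figure D1:**
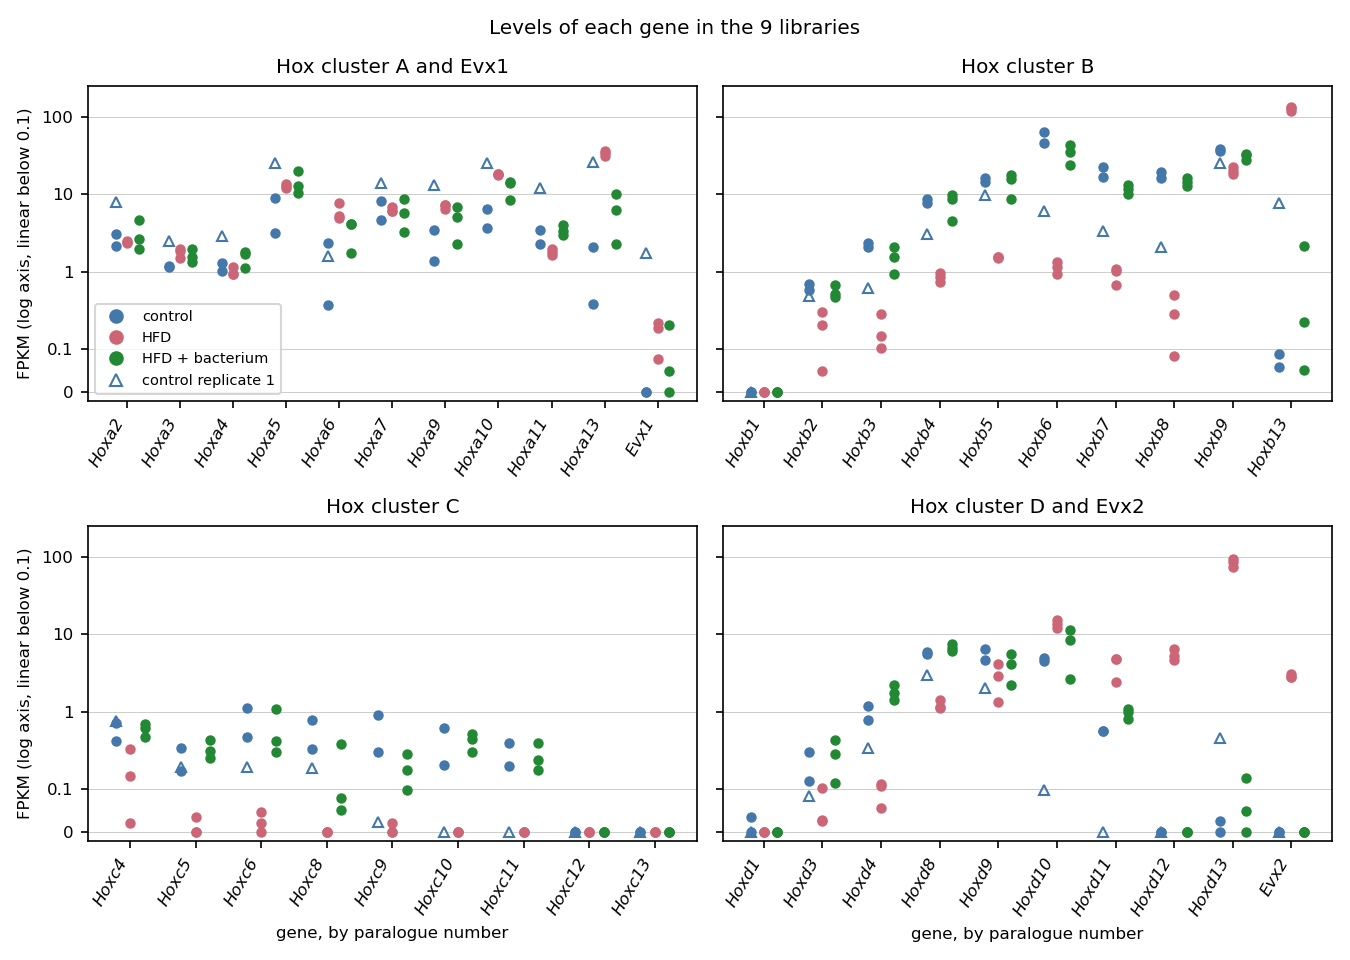
FPKM (log axis, linear below 0.1) of each gene in each of the 9 libraries, 1 panel per cluster, with points coloured by group and control replicate 1 as an open triangle. The HFD points lie above the rest for Hoxb13, Hoxd10 to Hoxd13 and Evx2 and below them for Hoxb3 to Hoxb8, and the open triangle lies above the other controls in most of HoxA.

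The neighbours of Hoxd13 at the posterior end of HoxD shared its pattern. For Hoxd12 the values were 0, 0 and 0 FPKM in control, 5.22, 6.36 and 4.62 in HFD and 0, 0 and 0 in HFD with the bacterium. Hoxd12 acts with Hoxd13 in limb and gut sphincter patterning, and no fragment was found in any of the 6 libraries outside HFD. A count of 0 allows up to 3 fragments, which is 0.0846 FPKM in the shallowest library, so mean Hoxd12 was at least 63.8-fold higher in HFD. Evx2 was at 0, 0 and 0 FPKM in control, 2.83, 3.02 and 2.78 in HFD and 0, 0 and 0 in HFD with the bacterium. Evx2, the homeobox gene just beyond Hoxd13 that is expressed with it in limb and genital buds, was likewise without a fragment outside HFD, and its mean was at least 56.0-fold higher in HFD. For Hoxd11 the values were 0, 0.564 and 0.565 FPKM in control, 4.798, 4.76 and 2.41 in HFD and 1.002, 0.798 and 1.07 in HFD with the bacterium. Hoxd11, a gene of kidney and forelimb development, was highest in the 3 HFD libraries, of which replicate 4 was lower than the other 2. Hoxd10 was at 0.0972, 4.904 and 4.44 FPKM in control, 15.1, 13.3 and 12.04 in HFD and 8.35, 2.64 and 11.2 in HFD with the bacterium. Hoxd10, which acts in hindlimb and lumbar spinal patterning, was again highest in HFD, but replicate 4 with the bacterium came within 1 FPKM of the lowest HFD library.

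The HoxD ratios fell off from Hoxd13 to Hoxd11 and Hoxd10. Hoxd12 had only a lower limit, 63.8 times control, and the ratios of Hoxd13 rest on few fragments outside HFD, so these 2 genes cannot be ranked. Relative to control, mean levels in HFD were 530.6 times for Hoxd13, 10.6 times for Hoxd11 and 4.29 times for Hoxd10, or 6340, 7.07 and 2.89 times without control replicate 1. Relative to the bacterium group the ratios were 1361, 4.18 and 1.82. The log2 differences from control were 2.67 (SE 0.13) for Hoxd12, 1.85 (SE 0.25) for Hoxd11, 2.14 (SE 0.65) for Hoxd10 and 1.95 (SE 0.11) for Evx2. The difference of Hoxd10 was 1.35 without control replicate 1. Evx1, the homologue beside HoxA, did not follow Evx2: it was highest, at 1.74 FPKM, in control replicate 1 and did not exceed 0.218 FPKM in the other libraries.

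The anterior and central members of HoxD went the other way or did not separate the groups. Hoxd9 was at 2.04, 6.49 and 4.61 FPKM in control, 2.92, 4.18 and 1.34 in HFD and 4.15, 2.22 and 5.57 in HFD with the bacterium. Hoxd9, a central gene of limb and spinal cord patterning, overlapped in all 3 groups. For Hoxd8 the values were 2.94, 5.82 and 5.54 FPKM in control, 1.15, 1.42 and 1.12 in HFD and 6.54, 6.101 and 7.51 in HFD with the bacterium. Hoxd8 was lowest in HFD and highest with the bacterium, without overlap between any 2 groups. Hoxd4 was at 0.339, 1.19 and 0.784 FPKM in control, 0.108, 0.0567 and 0.116 in HFD and 1.75, 1.404 and 2.200 in HFD with the bacterium. Hoxd4, a gene of the hindbrain and neck vertebrae, showed the same order of groups, also without overlap. The annotated exons of Hoxd4 share 52.3% of their length with Hoxd3 on the same strand, so its value is uncertain. The log2 difference between HFD and control was -1.33 (SE 0.21) for Hoxd8 and -0.67 (SE 0.19) for Hoxd4. Hoxd3 stayed at or below 0.434 FPKM in every library, and Hoxd1 had 1 fragment in all, in control replicate 2.

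HoxB supplied most of the low genes of the HFD colon. Hoxb8 was at 2.098, 16.00 and 19.6 FPKM in control, 0.283, 0.0846 and 0.498 in HFD and 14.3, 12.6 and 16.3 in HFD with the bacterium. Hoxb8, known for its part in thoracic patterning and in myeloid cells and microglia, had 4 to 23 fragments in HFD against 94 to 783 elsewhere. In the order control, HFD and HFD with the bacterium, Hoxb6 reached 6.08, 45.8 and 64.2, then 1.14, 0.937 and 1.34, then 35.2, 23.6 and 42.7 FPKM. Hoxb6, a marker of posterior lateral plate mesoderm, was the most abundant Hox gene of control replicates 2 and 3 and of replicates 1 and 4 with the bacterium. Hoxb7 was at 3.31, 16.6 and 22.3 FPKM in control, 1.07, 1.01 and 0.666 in HFD and 10.1, 11.8 and 13.01 in HFD with the bacterium. Hoxb7 shares that mesodermal domain. In each of these 3 genes, control replicate 1 lay between HFD and the other 5 libraries.

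Hoxb5 was at 9.900, 16.4 and 14.4 FPKM in control, 1.57, 1.56 and 1.496 in HFD and 17.9, 8.74 and 15.7 in HFD with the bacterium. Hoxb5 is expressed in enteric neural crest cells, where it acts on Ret. Its HFD values lay within 0.1 FPKM of each other, and no other library was below 8.74 FPKM. For Hoxb4 the values were 3.09, 8.72 and 7.72 FPKM in control, 0.852, 0.739 and 0.957 in HFD and 8.67, 4.49 and 9.73 in HFD with the bacterium. Hoxb4, known from blood stem cell expansion, repeated the pattern at a lower level. Hoxb3 was at 0.623, 2.34 and 2.098 FPKM in control, 0.288, 0.105 and 0.148 in HFD and 1.53, 0.932 and 2.08 in HFD with the bacterium. Hoxb3, an anterior gene of hindbrain segments, was the lowest of these 6 genes by mean in each group and shares 52.9% of its exonic length with an antisense transcript, Hoxb3os, so its value is uncertain because the strand of counting is not given in the sources used here.

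Relative to control, mean levels in HFD were 43.6-fold lower for Hoxb8, 34.0-fold for Hoxb6, 15.4-fold for Hoxb7, 8.79-fold for Hoxb5, 7.67-fold for Hoxb4 and 9.36-fold for Hoxb3. The log2 differences were -3.01 (SE 0.60) for Hoxb8, -3.71 (SE 0.70) for Hoxb6, -2.67 (SE 0.52) for Hoxb7, -2.49 (SE 0.26) for Hoxb5 and -1.93 (SE 0.35) for Hoxb4. The summed FPKM of Hoxb1 to Hoxb8 was 25.6, 106.5 and 131 in control, 5.51, 4.64 and 5.15 in HFD, and 88.2, 62.8 and 100.2 with the bacterium.

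Between the low central genes and the high Hoxb13 lay Hoxb9, which differed less. Hoxb9 was at 25.6, 36.2 and 38.9 FPKM in control, 18.4, 22.7 and 19.9 in HFD and 27.8, 31.9 and 33.4 in HFD with the bacterium. Hoxb9, a gene of thoracic patterning, was the second most abundant Hox gene of control and bacterium libraries by group mean and was still the fourth in HFD. Its HFD mean was 1.65-fold lower than control. Hoxb2 ranged from 0.0491 to 0.700 FPKM, with the 3 HFD libraries lowest, and Hoxb1 was at 0 in all 9 libraries.

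HoxC was nearly silent in all libraries, as the summed FPKM of its 9 genes shows. The sum was 1.35, 4.45 and 2.49 in control, 0.224, 0.0217 and 0.381 in HFD, and 1.85, 2.38 and 3.46 with the bacterium. No HoxC gene exceeded 0.334 FPKM in HFD or 1.12 FPKM elsewhere. Hoxc4 was the 1 HoxC gene to pass the filter. Hoxc8, Hoxc10 and Hoxc11 were at 0 in all 3 HFD libraries, and Hoxc12 and Hoxc13 in all 9. In control replicate 1, Hoxc10 and Hoxc11 were at 0 too.

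As a whole HoxA did not follow HoxB or HoxD, but the calls of several of its genes depended on control replicate 1. Without that library, Hoxa9, Hoxa10 and Hoxa13 were also called higher in HFD than in control by limma, while Hoxa11 stayed lower by mean. In 8 of 10 HoxA genes control replicate 1 was the highest of all 9 libraries. Hoxa10 was at 25.6, 6.496 and 3.64 FPKM in control, 18.1, 18.1 and 17.9 in HFD and 14.5, 14.2 and 8.404 in HFD with the bacterium. Hoxa10 is a posterior gene of uterus and hindlimb, and its HFD values agreed closely with each other. For Hoxa9 the values were 13.01, 3.500 and 1.39 FPKM in control, 7.23, 7.28 and 6.39 in HFD and 5.13, 6.94 and 2.31 in HFD with the bacterium. Hoxa9 is best known from blood progenitors and leukaemia. Hoxa7 was at 13.8, 8.07 and 4.71 FPKM in control, 6.804, 6.09 and 6.04 in HFD and 5.72, 8.596 and 3.28 in HFD with the bacterium. Hoxa7, a central gene, overlapped in all groups and shares 20.4% of its exonic length with antisense transcripts. The HFD mean was 1.52 times the control mean for Hoxa10 and 1.17 times for Hoxa9, or 3.56 and 2.85 times without control replicate 1.

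For Hoxa6 the values were 1.61, 2.34 and 0.378 FPKM in control, 7.81, 5.29 and 4.97 in HFD and 4.09, 4.12 and 1.76 in HFD with the bacterium. Hoxa6 was highest in HFD, with a log2 difference from control of 1.59 (SE 0.36) and no overlap. Hoxa5 was at 25.1, 8.96 and 3.13 FPKM in control, 12.7, 13.6 and 12.02 in HFD and 19.9, 10.3 and 12.6 in HFD with the bacterium. Hoxa5 takes part in lung and gut development and in adipose tissue, and its 3 groups overlapped. For Hoxa11 the values were 12.01, 3.49 and 2.28 FPKM in control, 1.79, 1.98 and 1.65 in HFD and 3.35, 3.99 and 2.98 in HFD with the bacterium. Hoxa11, a gene of uterus, kidney and limb, was lowest in HFD, unlike its neighbours Hoxa10 and Hoxa13, whose HFD means were above the control means. Its HFD mean was 3.28-fold lower than control, or 1.60-fold without control replicate 1. It shares 35.0% of its exonic length with the antisense transcript Hoxa11os, so the 2 cannot be told apart where counting ignores strand. Hoxa11os was at 68.2, 2.88 and 1.83 FPKM in control, 25.1, 24.6 and 25.8 in HFD and 8.75, 11.9 and 3.19 with the bacterium, and here too control replicate 1 was highest.

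The anterior genes Hoxa2 and Hoxa3 and the central gene Hoxa4 overlapped between the groups. Hoxa2 was at 7.92, 3.05 and 2.16 FPKM in control, 2.52, 2.42 and 2.35 in HFD and 4.59, 1.995 and 2.66 in HFD with the bacterium. Hoxa2 patterns the second branchial arch, and control replicate 1 was its highest library. For Hoxa3 the values were 2.52, 1.14 and 1.19 FPKM in control, 1.94, 1.52 and 1.84 in HFD and 1.36, 1.98 and 1.55 in HFD with the bacterium. Hoxa3, a gene of thymus and parathyroid development, varied little, and 25.4% of its exonic length lies antisense to other transcripts. Hoxa4 was at 2.88, 1.03 and 1.28 FPKM in control, 0.937, 0.944 and 1.15 in HFD and 1.12, 1.69 and 1.82 in HFD with the bacterium. Hoxa4, a gene of the neck vertebrae, has 16.0% of its exons antisense to another transcript.

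**Figure D2:**
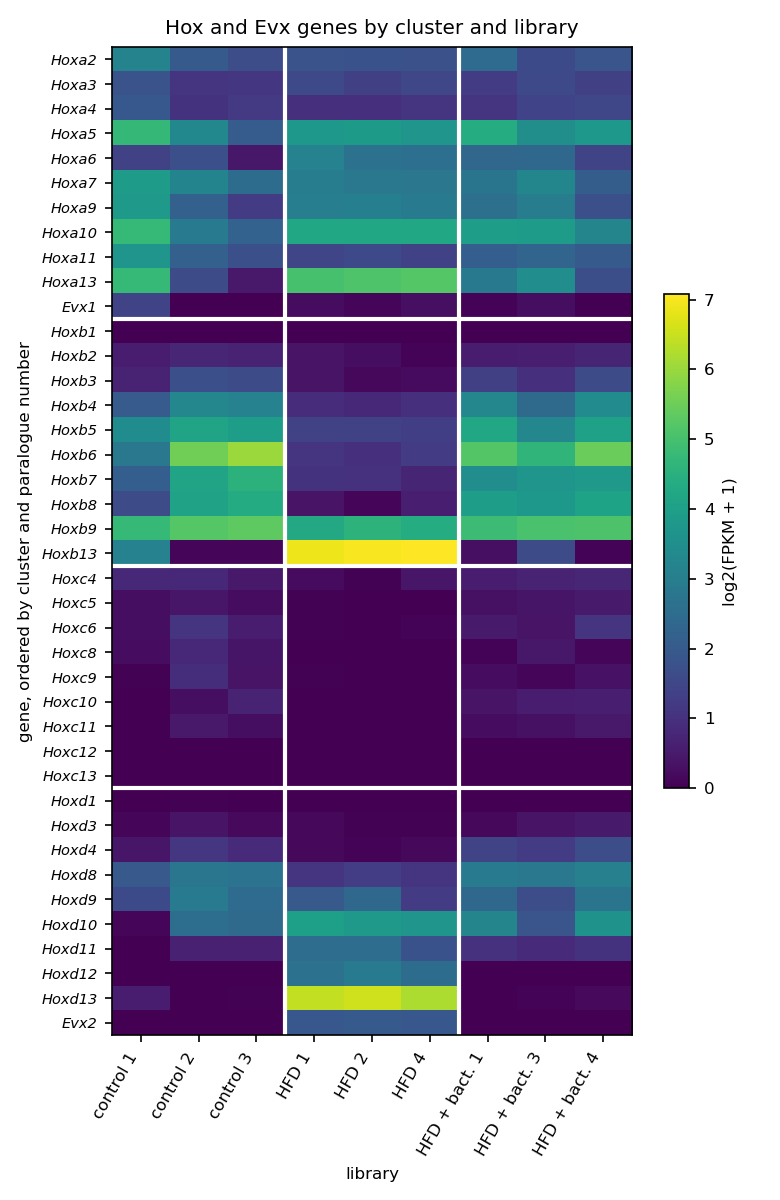
Level of each of the 40 genes in each library as log2(FPKM + 1), with libraries in columns by group and genes in rows by cluster and paralogue number. Higher levels are brighter. The HFD columns are bright at the posterior end of HoxB and HoxD and dark over Hoxb3 to Hoxb8, and control replicate 1 differs from the other controls over HoxA and HoxB.

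Over the whole set, limma called 7 members higher and 9 lower in HFD relative to control against 10.6% and 9.11% of the 17907 genes tested. The difference between HFD and control helped to choose the set, so nothing is read from these shares. Without control replicate 1 the number called was 18 in place of 16, with Hoxa9, Hoxa10 and Hoxa13 gained and Hoxd10 lost. In HFD with the bacterium against HFD, 8 members were higher and 5 lower, against 4.54% and 7.60% of genes. Hoxd12, Hoxd13 and Evx2, which passed the filter only through HFD and had to differ, are among the 7 higher and the 5 lower. Nothing is read from the second pair of shares either. Both comparisons use the same 3 HFD libraries, so their values are given side by side and their agreement is no result. For Hoxd13 the second difference was -6.32 (SE 0.17), for Hoxb13 -6.32 (SE 0.76), for Hoxd12 -2.67 (SE 0.13), for Evx2 -1.95 (SE 0.11) and for Hoxd11 -1.31 (SE 0.25). In the other direction it was 3.99 (SE 0.70) for Hoxb6, 3.59 (SE 0.60) for Hoxb8, 2.72 (SE 0.52) for Hoxb7, 2.52 (SE 0.26) for Hoxb5 and 2.17 (SE 0.35) for Hoxb4. For Hoxd10 it was -0.95 (SE 0.65) and for Hoxa6 -0.73 (SE 0.36). Leaving out any 1 HFD library takes Hoxd12, Hoxd13 and Evx2 below the filter by construction, and 8, 10 and 9 members were then called against control without HFD replicate 1, 2 and 4 and 8, 8 and 9 between the 2 HFD groups.

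HFD with the bacterium against control was not itself used to choose the set, and it showed little. The set was chosen because HFD differed from the other groups, which can favour genes that are alike in those groups. The lack of calls here is therefore not independent of that choice. None of the 28 tested members was called by limma, against 1.11% of all genes, and 2, Hoxd4 and Hoxa6, had an unadjusted p below 0.05. Hoxd4 was 0.67 log2 units higher (SE 0.19, 95% interval 0.24 to 1.11, adjusted p = 0.11 in limma), with all 3 libraries above all 3 controls. Hoxd8 was 0.46 higher (SE 0.21, 95% interval -0.01 to 0.93, adjusted p = 0.26), and Hoxd11 0.53 higher (SE 0.25, 95% interval -0.03 to 1.099, adjusted p = 0.27), also without overlap. These were the 3 members whose groups did not overlap, all higher, and 9.86% of all genes were higher without overlap. Hoxa6 was 0.86 higher (SE 0.36, adjusted p = 0.23), with overlap.

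The intervals in this comparison were wide for the genes on which control replicate 1 stood apart. The interval was -1.30 to 1.87 for Hoxb6, -0.79 to 1.95 for Hoxb8, -2.17 to 1.29 for Hoxb13 and -1.73 to 2.52 for Hoxa13, so sizeable differences in either direction were within reach of the error. For Hoxd13 it was -0.49 to 0.28, a narrow span at levels near 0. Without control replicate 1, Hoxa10 was called higher with the bacterium, while 1187 genes were called in place of 198. Among the members whose log2 differences were followed there, Hoxb4 to Hoxb8, Hoxb13 and Hoxd13 changed sign. In HoxA, the mean levels of Hoxa2, Hoxa4, Hoxa9, Hoxa11 and Hoxa13 with the bacterium went from below the control mean to above it.

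**Figure D3:**
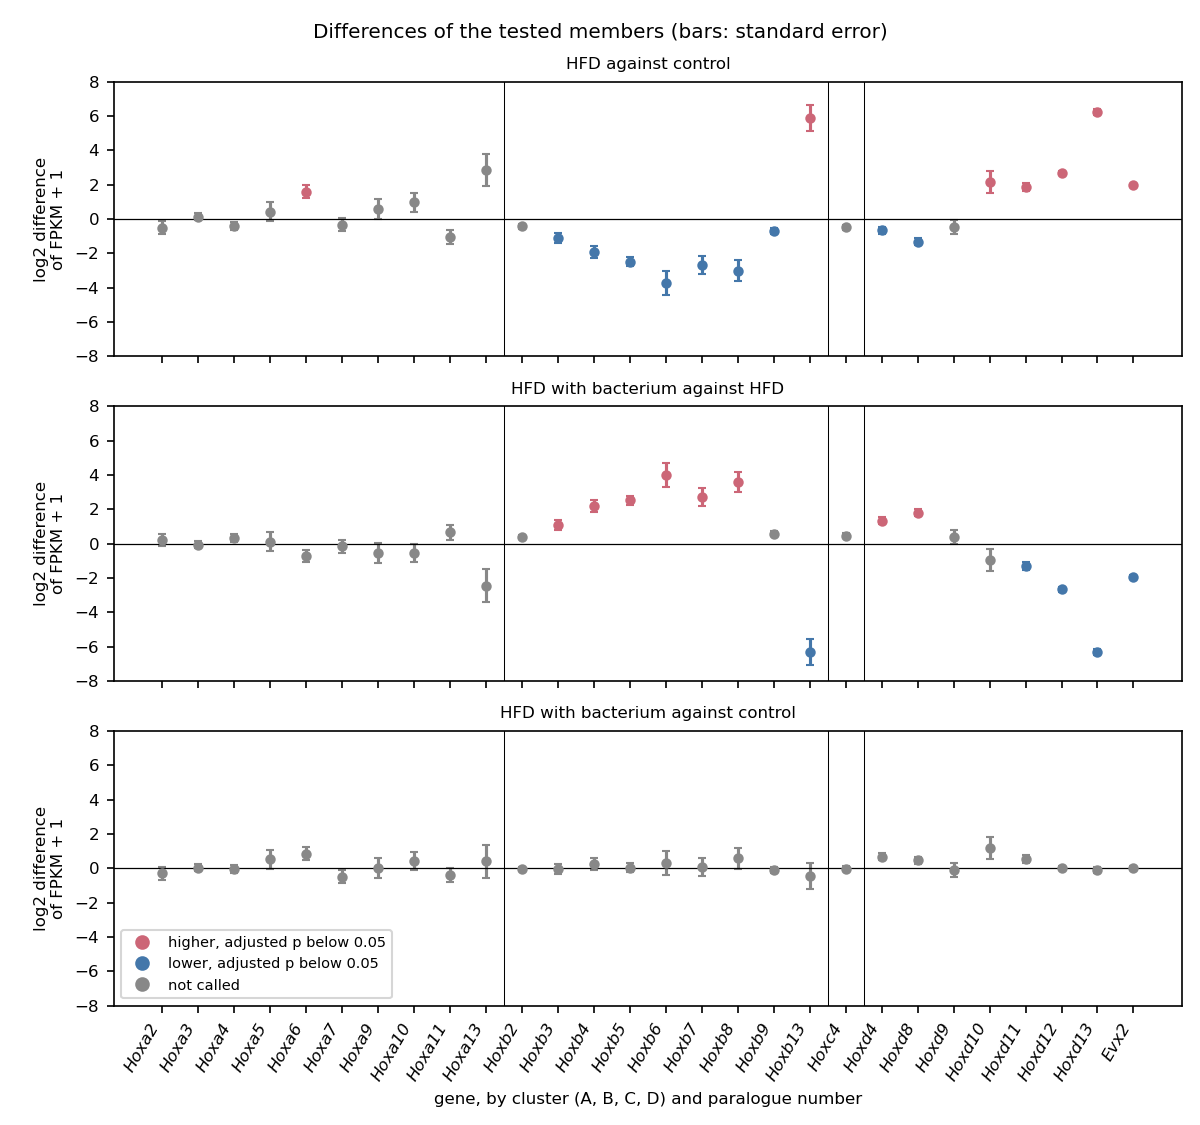
Log2 difference of FPKM + 1 for each tested member in the 3 comparisons, ordered by cluster and paralogue number, with bars for the standard error and colours for the call at an adjusted p below 0.05. HFD against control and HFD with the bacterium against HFD share the HFD libraries, and no member is called in HFD with the bacterium against control.

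The composition of the Hox transcripts gives 1 value per library. The genes of groups 10 to 13 made up 36.5%, 8.79% and 5.85% of the summed Hox FPKM in control, 80.4%, 81.1% and 81.8% in HFD, and 16.5%, 19.6% and 13.2% with the bacterium. Group 13 alone made up 67.5% to 70.5% in HFD and at most 17.4%, in control replicate 1, elsewhere. The difference between HFD with the bacterium and control in the share of groups 10 to 13 was -0.626 percentage points (exact permutation test, two-sided, p = 1, n = 3 per group, smallest possible p 0.1). Without control replicate 1 it was 9.11 points, and without replicate 4 of the bacterium group it was 0.996 points, so its sign rested on single libraries. The summed FPKM of all Hox genes was 196.7 to 209.1 in control, 344.2 to 371.7 in HFD and 176.7 to 205.9 with the bacterium.

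By cluster, HoxD held 3.02%, 9.34% and 7.69% of the sum in control, 33.1%, 33.5% and 27.4% in HFD, and 10.7%, 7.64% and 13.7% with the bacterium. HoxA held 66.3% in control replicate 1 and 9.82% to 36.2% in the other 8 libraries. The order of the genes by group mean differed accordingly. In HFD it ran Hoxb13 at 127 ± 8.03 FPKM (SD, n = 3), Hoxd13 at 84.3 ± 10.9, Hoxa13 at 33.8 ± 2.33, Hoxb9 at 20.4 ± 2.18, Hoxa10 at 18.0 ± 0.106, Hoxd10 at 13.5 ± 1.52 and Hoxa5 at 12.8 ± 0.794, and the last pair overlapped. In HFD with the bacterium it ran Hoxb6 at 33.9 ± 9.61, Hoxb9 at 31.0 ± 2.93, Hoxb8 at 14.4 ± 1.82, Hoxa5 at 14.3 ± 4.99 and Hoxb5 at 14.1 ± 4.78, of which neither the first 2 nor the last 3 differed beyond their spread. In control Hoxb6, at 38.7 ± 29.7, and Hoxb9, at 33.6 ± 7.01, again led.

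**Figure D4:**
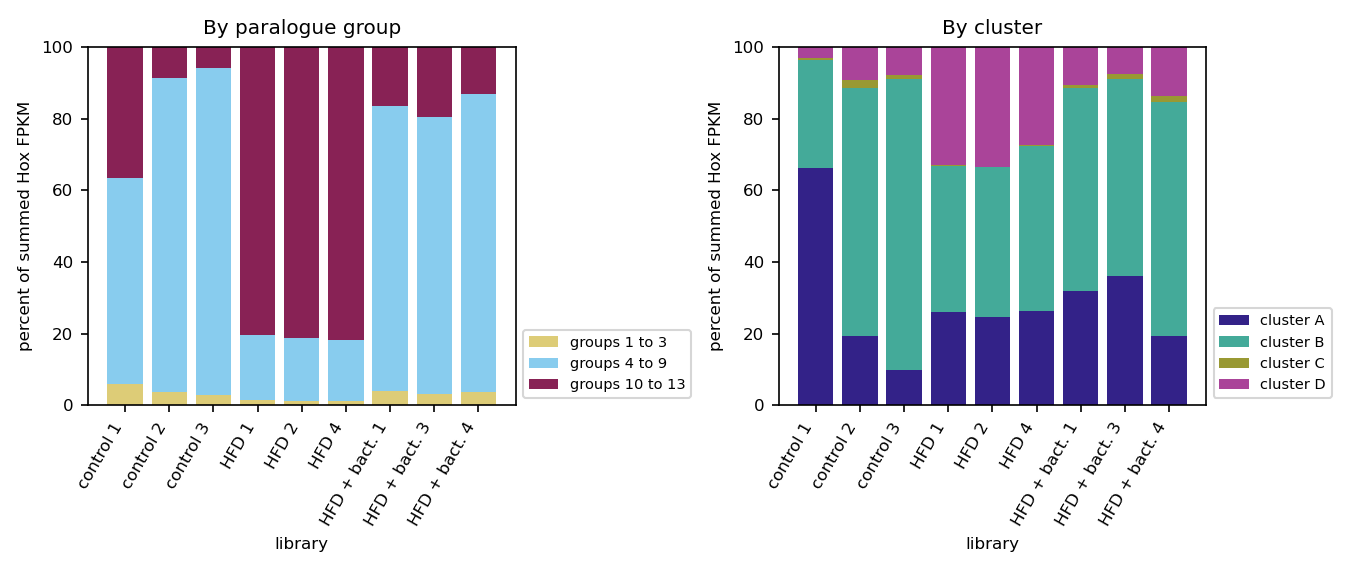
Percent of the summed Hox FPKM of each library held by paralogue groups (1 to 3, 4 to 9 and 10 to 13) and by clusters A to D. Groups 10 to 13 hold 80.4% to 81.8% in the HFD libraries, 36.5% in control replicate 1 and 5.85% to 19.6% in the other 5.

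Genes that act on or with the clusters were read from lists made with earlier results of these data known. Their calls in HFD against control are given beside 10.6% of all genes higher and 9.11% lower. The median log2 difference over all genes was -0.00107. Because the lists were made with those results known, nothing is read from these shares. Of 9 tested upstream regulators, 3 were lower and none higher (median -0.22), also without control replicate 1. Cdx2, the intestinal homeobox factor that acts upstream of posterior Hox genes, was at 73.2, 121 and 141 FPKM in control, 8.18, 6.66 and 9.45 in HFD and 71.96, 80.3 and 54.3 with the bacterium. Its HFD level was far below the rest (log2 difference -3.59, SE 0.26, adjusted p = 7.9e-05 in limma), and it was higher with the bacterium than in HFD (2.93, SE 0.26, adjusted p = 2.3e-04). Its paralogue Cdx1 was at 133, 175 and 210.1 FPKM in control, 155, 191 and 172 in HFD and 124, 158 and 132 with the bacterium, and was not called. Aldh1a1, a retinoic acid synthesising enzyme, was at 31.98, 149 and 169 FPKM in control, 8.47, 6.16 and 7.704 in HFD and 106, 77.3 and 104 with the bacterium (-3.49, SE 0.54, adjusted p = 0.003 against control). The retinoic acid receptor Rarg was lower in HFD than in control by a smaller margin (-0.58, SE 0.12, adjusted p = 0.012). With the bacterium, 2 of the 9, Cdx2 and Aldh1a1, were higher than in HFD and none lower.

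The 6 TALE cofactors tested and reported here had a median log2 difference of -0.25. Among them Pknox1 was higher (0.41, SE 0.12, adjusted p = 0.047) and Meis3 (-0.85, SE 0.15, adjusted p = 0.0067) lower in HFD than in control by limma. None was called with the bacterium against HFD. Of 22 tested Polycomb and trithorax genes, Kmt2a and Ash1l, which encode histone methyltransferases of the activating side, were higher (0.52 and 0.58) and Pcgf2, a Polycomb repressive complex component, was lower (-0.87), with a list median of 0.02. Kmt2a lost its call without control replicate 1. Pcgf2 was at 14.1, 10.5 and 10 FPKM in control, 6.16, 5.597 and 5.64 in HFD and 6.47, 5.94 and 5.97 with the bacterium. It was the 1 gene of these regulator lists called in HFD with the bacterium against control (-0.80, SE 0.14, adjusted p = 0.037 in limma). Without control replicate 1, Cdx2 was also called there, lower with the bacterium. No gene of this list was called between the 2 HFD groups. The core Polycomb enzyme Ezh2 was not called in any comparison.

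The noncoding transcripts of the clusters had 11 tested members, with a median log2 difference between HFD and control of -0.03 and 1 call, Hottip. Without control replicate 1, 2 were called higher and 3 lower. Hottip, transcribed beyond Hoxa13 and known to act on posterior HoxA genes, was at 5.15, 0 and 0 FPKM in control, 9.71, 7.53 and 9.601 in HFD and 0.7704, 1.21 and 0 with the bacterium. It was called higher in HFD than in control (2.43, SE 0.64, adjusted p = 0.03 in limma) and lower with the bacterium than in HFD (-2.65, SE 0.64, adjusted p = 0.03), and like Hoxa13 it was high in control replicate 1. Haglr, a transcript antisense to HoxD genes, was higher with the bacterium than in HFD (0.86, SE 0.16, adjusted p = 0.0094), with levels of 0.311, 0.349 and 0.459 FPKM in control, 0.0176, 0.111 and 0.0756 in HFD and 0.971, 0.576 and 1.34 with the bacterium. Hotair, from HoxC, did not exceed 0.117 FPKM in any library. The row for the precursor of Mir196a-1, a microRNA gene between Hoxb9 and Hoxb13 known for targeting Hox transcripts, was at 17.3, 62.1 and 45.3 FPKM in control, 60.1, 72.2 and 77.3 in HFD and 39.98, 75.9 and 59.7 with the bacterium, and was not called. Its mature product is shown with the seed (bases 2 to 8) in capitals, from RefSeq, and these libraries do not measure mature microRNAs.
mmu-miR-196a-5p: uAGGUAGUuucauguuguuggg

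Among 11 tested genes next to the clusters, 4 were higher and none lower in HFD than in control (median 0.30), and 4 and 1 without control replicate 1. Ttll6, near Hoxb13, was at 10.9, 5.37 and 6.25 FPKM in control, 16.5, 19.01 and 18.8 in HFD and 6.604, 5.48 and 6.52 with the bacterium (1.22, SE 0.21, adjusted p = 0.0056 in limma). Lnpk, which lies beyond Evx2, was at 1.67, 1.23 and 1.26, then 3.198, 3.53 and 3.19, then 1.72, 1.88 and 1.93 FPKM (0.85, SE 0.12, adjusted p = 0.0015). Skap2 and Hibadh, which flank HoxA, differed by 0.84 and 0.42. Ttll6, Skap2 and Lnpk were lower with the bacterium than in HFD, and Hibadh was not called. Mtx2, on the anterior side of HoxD, was not called in any comparison.

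Other regional transcription factors of the gut also separated the groups. Of 13 tested and reported here (median -0.50), limma called Tcf21 and Pitx1 higher and Isx, Tbx3 and Hand2 lower in HFD relative to control. Isx, an intestinal homeobox repressor of vitamin A uptake genes, was at 12.96, 72.8 and 63.5 FPKM in control, 0.238, 0.0622 and 0 in HFD and 93.2, 68.5 and 94.7 with the bacterium. Pitx1, a homeobox gene of hindlimb identity, was at 4.16, 3.005 and 2.94 FPKM in control, 8.11, 8.98 and 7.35 in HFD and 1.13, 3.12 and 3.45 with the bacterium. Isx and Tbx3 were higher and Pitx1 lower with the bacterium than in HFD. Of 5 tested homeobox genes outside the clusters, Tlx2, a gene of enteric neurons, was lower in HFD than in control (-1.40, SE 0.25, adjusted p = 0.0063), and with the bacterium Tlx2 was higher and Mnx1 lower than in HFD. Without control replicate 1, 4 of these were tested, and Mnx1 and Meox1 were called higher in HFD than in control.

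Other cell types were measured by their markers. These lists too were made with earlier results known. Calls in HFD against control are given beside 10.6% of all genes higher and 9.11% lower, and nothing is read from these shares. Calls in HFD with the bacterium against control are read against 1.11% called either way. The 10 epithelial genes, all detected, summed to 5583 to 10300 FPKM in control, 5420 to 6197 in HFD and 5121 to 6365 with the bacterium. Leukocyte markers moved with the HFD group: all 8 genes were called higher than in control, and their summed FPKM was 88.2 to 114.9 in HFD, 19.5 to 24.1 in control and 22.5 to 30.9 with the bacterium. The 10 enteric neuron and glia genes summed to 37.7 to 41.2 FPKM in HFD, 67.8 to 170.2 in control and 67.2 to 136.4 with the bacterium, and 4 of them, Uchl1, Tubb3, Prph and Gfap, were called lower in HFD than in control, or 3, without Uchl1, when control replicate 1 was left out. The 5 genes for interstitial cells of Cajal summed to 131.8 to 143.8 FPKM in HFD, 20.4 to 59.7 in control and 34.9 to 39.1 with the bacterium, with Thbs4 alone at 98.7, 109 and 92.3 in HFD. Thbs4 and Ano1 were called higher in HFD than in control, whereas Kit, the receptor that defines these cells, was at 17.4, 8.07 and 7.198 FPKM in control, 6.58, 5.59 and 6.66 in HFD and 12.7, 13.2 and 11.8 with the bacterium, and neither Kit, Etv1 nor Gja1 was called. Of the 10 epithelial genes 2, Krt20 and Vil1, were lower in HFD than in control, or 5 without control replicate 1. Of the 10 fibroblast genes 1 was higher, or 5 without that library, and none of the 10 smooth muscle genes was called either way. No gene of the mesothelial, endothelial or blood progenitor list was called in HFD against control with all libraries, but the endothelial gene Tek and the progenitor gene Cd34 were called higher without control replicate 1, and Ckm was the 1 skeletal muscle gene called, lower in HFD. In HFD with the bacterium against control, Ptprc was the 1 leukocyte gene called, higher. Without control replicate 1, 6 of 10 epithelial genes were called lower there and 3 of 10 fibroblast genes higher. Leaving out that library also raised the number called among all genes several-fold, so nothing is read from these counts. The part of these shifts in the Hox levels was not tested.

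Tissues in which HOX13 proteins are known to be high were also looked at. The 12 genes of anal and skin squamous epithelium summed to 2.90 to 3.32 FPKM in HFD, 3.34 to 4.51 in control and 3.05 to 5.08 with the bacterium, and Ivl and Sprr3 were at 0 in all 9 libraries. The 6 prostate and urothelium genes reported here summed to 399.9 to 478.8 FPKM in HFD, 18.7 to 66.1 in control and 29.6 to 39.4 with the bacterium, with Spink1 alone at 470.3, 434 and 394 in HFD. Upk1a, a urothelial plaque protein gene, was lower in HFD than in control (-1.02, SE 0.27, adjusted p = 0.029 in limma), and Upk1b was at 1.91, 5.02 and 2.59 FPKM in control and 1.74, 1.74 and 1.37 in HFD. Pbsn, a prostate secretory gene, was at 2.66, 20.1 and 0 FPKM in the HFD libraries and at 0 in the other 6. The part of these tissues in the Hox levels was not tested.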

How the data were processed

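Colon RNA was measured in 9 libraries, 3 per group. The authors deposited 1 table of FPKM, with 54491 rows. The submitters' processing notes name HISAT2 2.0.5 and GRCm39. Counting tool, strand setting and annotation: not given in the sources used here. Gene symbols were assigned by Ensembl identifier, which gave a symbol to 52093 of the 54491 rows. FPKM multiplied by exonic length (GENCODE M21) gave whole fragment numbers, within 0.02, for 98.5% to 98.9% of genes at 1 to 20 fragments, from which 13980000 to 18750000 fragments per library were estimated. Limits at a count of 0 cover counting error only.

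The 17907 genes that reached 0.5 FPKM in 3 or more of the 9 libraries were fitted as log2(FPKM + 1) in limma 3.58.1 (R 4.3.3) with an intensity trend and a mean per group, and p-values were adjusted over all of them by Benjamini-Hochberg. Shares were compared by an exact permutation test in SciPy 1.17.1. The members and all gene lists were chosen with earlier results of these data known. Members with a group mean of at least 1 FPKM (26 of 40) have every library's value in the text. Of other lists the called genes with the smallest p are named, with Cdx1, Cdx2, Hotair, Hottip and Haglr. Some genes of these lists are not reported here and are left out of the lists' counts and sums. The remaining genes named were chosen after their values were seen. On simulated data the script recovered 62% of 1-unit and 94% of 2-unit log2 changes for HFD against control (17690 genes tested). The rates were 60% and 91% for HFD with the bacterium against HFD (17640), and 68% and 88% for HFD with the bacterium against control (17646). Of 163, 161 and 163 genes called, 7, 10 and 7 held no planted change. Changes were planted only in genes with a control mean log2(FPKM + 1) above 2. The rates do not cover genes lower in control, such as Hoxd11, Hoxd12, Hoxd13 and Evx2. Alternatives were other pseudocounts, filters, normalizations and variance models, 2-group fits, the replicate block and leaving out each library. Promoter and microRNA sequences are from RefSeq (GRCm38.p6), and 16 members without a promoter entry were not analysed there. Protein sequences were not used here.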

Additional observations from a re-analysis of the deposited data

How the results depend on the processing

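For HFD against control, 3535 genes were called, and 1985 with the replicate block. Between the 2 HFD groups the count was 2174, against 3316 with only the 2 groups compared and 1288 with the replicate block. Between the bacterium group and control, 198 genes were called, against 15 with no filter, 302 with a filter of 1 FPKM, 46 after quantile normalization, 11 after TPM scaling, 10 with only the 2 groups compared and 0 with the replicate block. Leaving out 1 library in turn gave 1612 to 4527, 991 to 3603 and 0 to 1187 genes in the 3 comparisons, and 8 to 18, 8 to 16 and 0 to 1 members, the lowest member counts being those without an HFD library. After TPM scaling the median of all genes was 0.218 in HFD against control, where 78.2% of called genes were higher in place of 53.8%, and -0.179 in HFD with the bacterium against HFD, where 25.0% were higher in place of 37.4%. Of the 16 members counted in HFD against control, Hoxd10 dropped out under both smaller pseudocounts, no filter, no trend, quantile normalization, 2 groups only and the replicate block, Hoxd4 with no filter, 2 groups only and the block, Hoxb3 with no filter and the block, and Hoxb9 after TPM scaling. Among the 9 single-library omissions, Hoxd10 dropped out in 7, Hoxd4 in 6, Hoxb3 in 5, Hoxb9 in 4 and Hoxa6 in 1. In HFD with the bacterium against HFD, Hoxd11 dropped out under both smaller pseudocounts, the block and without HFD replicate 1 or 2, and Hoxb3 with no filter, the block and 5 omissions. Replicate numbers recur across groups, but the labels do not say that they mark a shared mouse or batch, and same-numbered libraries deviated together with correlations of -0.156 to 0.187. With the block, 13, 11 and 0 members were called, in place of 16, 13 and 0. In HFD with the bacterium against control, leaving out control replicate 1 turned Hoxd13 to 0.0657, Hoxb13 to 0.57, Hoxb6 to -0.70, Hoxb8 to -0.29, Hoxb7 to -0.69, Hoxb5 to -0.17 and Hoxb4 to -0.15 log2. Leaving out replicate 1 with the bacterium turned Hoxb5 to -0.16, and leaving out replicate 4 turned Hoxb7 to -0.02 and Hoxb5 to -0.07. Over all single-library omissions these genes ranged -0.20 to 0.0657 for Hoxd13, -0.95 to 0.57 for Hoxb13, -0.70 to 0.90 for Hoxb6, -0.29 to 1.08 for Hoxb8, -0.69 to 0.53 for Hoxb7, -0.17 to 0.32 for Hoxb5 and -0.15 to 0.54 for Hoxb4. The share of groups 10 to 13, with the bacterium minus control, was -0.626 points. It turned to 12.9 points as the median share of each gene's own maximum, and ranged from -6.23 to 9.11 with 1 library left out, being 9.11 without control replicate 1 and 0.996 without replicate 4 of the bacterium group. The cause of these changes was not tested. At the estimated depths, 1 fragment of Hoxd12 was worth up to 0.0282 FPKM, so differences among genes near 0 were not detectable, and 3 libraries per group cannot give an exact permutation p below 0.1.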
